A study of Gallus gallus with 12 samples.

Results

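The 10 genes described here mark or equip the endothelial cells that line the blood vessels of the brain: VWF, PECAM1, CDH5, KDR, FLT1, TEK, TIE1, CLDN5, MFSD2A and MMRN1. They were taken by name from a table of gene counts, and each name matched 1 of its 30742 rows. The counts come from 12 RNA-seq libraries of White leghorn chicken embryos at embryonic day 18, labelled as hypothalamus or as whole brain. Control eggs (CT) stayed at 37.8 °C, and eggs of the embryonic thermal manipulation group (ETM, called heat-exposed here) were held at 39.5 °C from day 13 to day 18 and otherwise kept as the controls. Relative humidity is given as 65% in one description and 60% in another. The 4 groups (control hypothalamus, heat-exposed hypothalamus, control whole brain, heat-exposed whole brain) held 3 libraries each, and all carry the same batch label. The replicates are called biological, but pooling of embryos is not described. The p-values set group differences against the scatter among these libraries. Whether that scatter is between single embryos or pools is therefore not known, and some of it may be technical.

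Brain vessels differ from most others in being sealed. Tight junctions built from CLDN5 (claudin-5) close the gaps between neighbouring endothelial cells, and MFSD2A, a lipid transporter, carries docosahexaenoic acid into the brain and, in mice, restrains transport by vesicles. Vessel growth and stability are governed by the receptors KDR and FLT1, which bind VEGF, and by the receptor TEK with its partner TIE1, which respond to angiopoietins. VWF is the large clotting glycoprotein stored by endothelial cells, CDH5 is the cadherin of their adherens junctions, PECAM1 is an adhesion molecule at cell borders, and MMRN1 (multimerin) is a secreted protein known in mammals from platelets and from endothelium, lymphatic endothelium above all. These roles come mainly from mouse and human work.

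Library totals ran from 13309467 to 18317019 counts. The libraries labelled hypothalamus went against that label in several defining markers and with it in others. NKX2-1, a regulator of the ventral hypothalamus, had 0, 0 and 2 counts in the control and 0, 20 and 0 in the heat-exposed ones, against 74 to 107 in each whole brain library. The hypothalamic hormone genes OXT and AVP were lower in them than in whole brain as well, by −6.46 ± 0.55 and −2.90 ± 0.17 on the log2 scale in controls (edgeR adjusted p = 1.64e-06 and 7.8e-08) and by −5.02 ± 0.50 and −1.25 ± 0.16 in heat-exposed embryos (2.48e-06 and 2.48e-05). Of 15 hypothalamus markers tested in controls, 5 were higher and 7 lower in the libraries with that label. LHX1 was among the higher ones, by 1.497 ± 0.1227 (edgeR adjusted p = 1.358e-06). In heat-exposed embryos, where 29.3% of all genes were higher and 29.6% lower, 4 of the 15 were higher and 6 lower. The higher ones there included LHX1 (1.521 ± 0.1229, edgeR adjusted p = 4.566e-07) and SIX3 (1.549 ± 0.2168, edgeR adjusted p = 4.468e-05). These libraries are called hypothalamus below as labelled, and every difference between the tissues rests on that label. Counts from W chromosome genes, which only female birds carry, made up 0.1129% to 0.1472% of 3 libraries (control hypothalamus 3, heat-exposed hypothalamus 2 and heat-exposed whole brain 1) and 0.01048% to 0.01742% of the others. In heat-exposed hypothalamus library 1 the deposited count and FPKM columns hold different reads, and the counts were used.

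All 10 genes were detected in every library, 9 of them well above the lowest levels in the table. Levels are CPM, each count as a share of its library total, scaled to a common size by TMM (a scaling that sets aside extreme genes). To compare genes with each other, CPM was divided by the annotated length in kilobases, with the mean ± SD of 3 libraries. In control whole brain CLDN5 was the most abundant at 46.8 ± 6.54 CPM per kb, followed by MFSD2A at 33.0 ± 4.42. FLT1 (8.02 ± 1.34), KDR (7.27 ± 0.766), CDH5 (7.24 ± 0.437) and PECAM1 (6.90 ± 3.46) lay within their spread of one another. VWF stood at 4.92 ± 0.105 CPM per kb, TIE1 at 2.94 ± 0.122 and TEK at 1.72 ± 0.129. MMRN1 was far below all of these at 0.105 ± 0.0354 CPM per kb. The CLDN5 value rests on an annotated length of 780 bases, the shortest of the 10, and would be lower if the transcript extends beyond it.

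On build GRCg7b the genes lie on 8 chromosomes. VWF (ENSGALG00010024534, chromosome 1, 74643818 to 74782625) and FLT1 (ENSGALG00010005282, chromosome 1, 175670034 to 175771469) share the largest. KDR (ENSGALG00010013498, 64703991 to 64731765) and MMRN1 (ENSGALG00010008376, 35022905 to 35078417) are on chromosome 4. TEK (ENSGALG00010006538, 69139769 to 69176902) is on the sex chromosome Z, TIE1 (ENSGALG00010022659, 19348526 to 19360558) on chromosome 8, CDH5 (ENSGALG00010007270, 11164878 to 11194081) on 11, and CLDN5 (ENSGALG00010024495, 723525 to 724367) on 15. PECAM1 (ENSGALG00010029625, 7472374 to 7501077) is on 18 and MFSD2A (ENSGALG00010015097, 5903278 to 5911055) on 23. All are annotated as protein coding. The only overlapping annotated gene is the microRNA gene gga-mir-6656 on the opposite strand within FLT1, which had 0 counts.

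**Figure D1:**
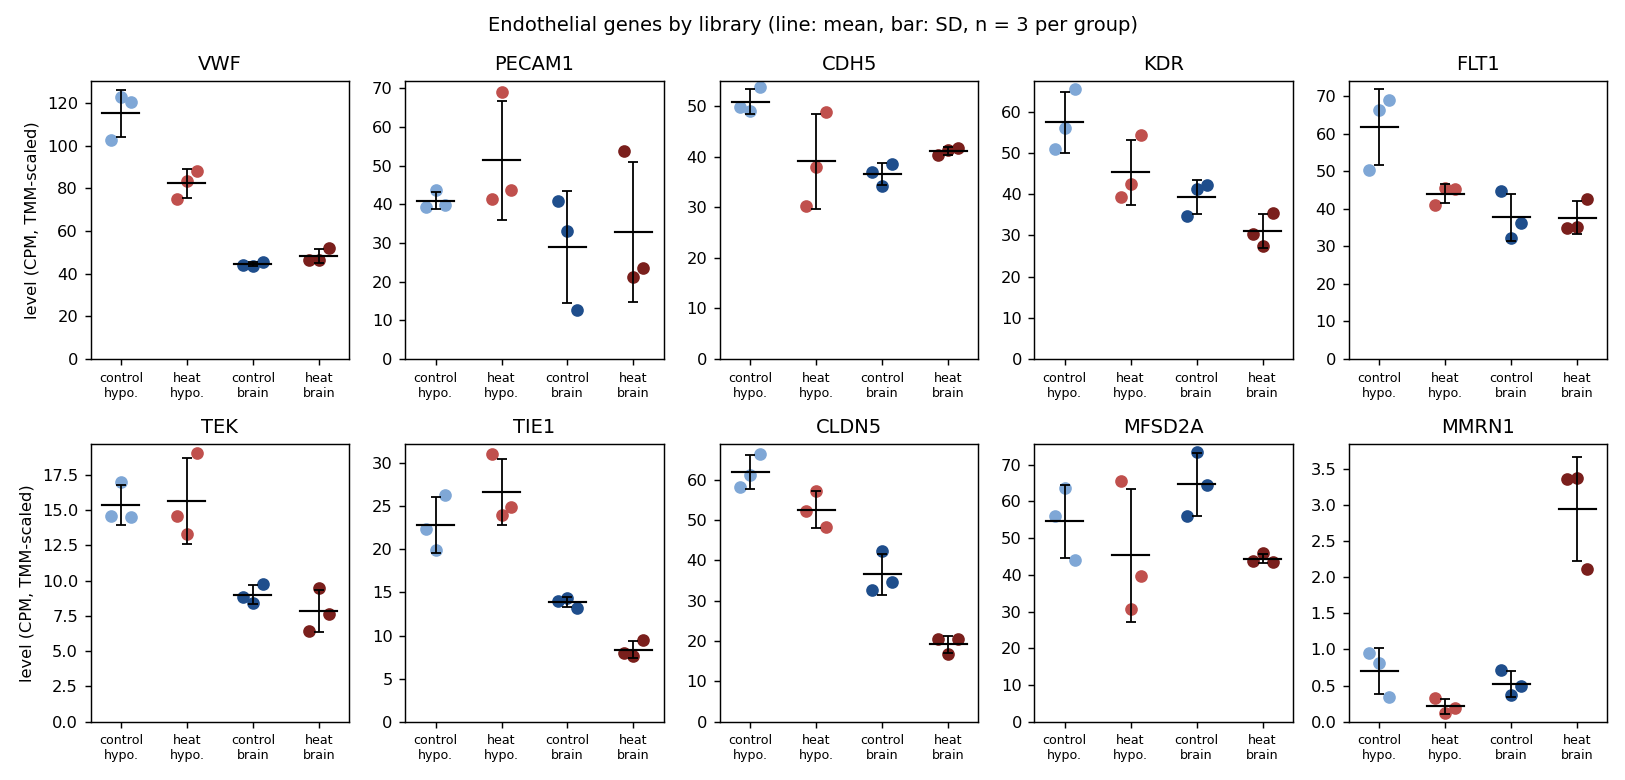
Level of each endothelial gene in CPM after TMM scaling (vertical axis, starting at 0) in the 12 libraries, by group. Points are libraries, horizontal lines are group means and bars are SD with n = 3; VWF stands at 102.5 to 122.5 CPM in control hypothalamus and 43.6 to 52.0 CPM in all whole brain libraries, and MMRN1 reaches 2.12 to 3.37 CPM only in heat-exposed whole brain.

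The first comparison asked how the endothelial genes differ between the tissues in control embryos. Hypothalamus held more RNA of most of them: 7 of 10 were called higher and 0 lower, where 34.3% of all 16201 genes tested were called (16.7% higher and 17.6% lower). The groups did not overlap for the same 7, against 49.3% of all genes. Their median log2 difference was 0.63, against 0.01 over all genes. In tissue RNA, more endothelial cells and more RNA per endothelial cell cannot be told apart. A gene was called when its p from edgeR's quasi-likelihood test, adjusted over all genes by the Benjamini-Hochberg method, was below 0.05. Differences are log2 values ± standard error (SE), hypothalamus minus whole brain.

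VWF separated the tissues furthest. It measured 102.5, 122.5 and 120.3 CPM in control hypothalamus and 44.1, 43.6 and 45.5 CPM in control whole brain. All control hypothalamus libraries thus lay above 100 CPM and all control whole brain libraries below 50 CPM, with little spread in either. The difference was 1.38 ± 0.10 (edgeR adjusted p = 4.28e-07), which ranked 110 among 16201 genes by p.

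CLDN5, the sealing claudin, measured 58.1, 61.2 and 66.4 CPM in control hypothalamus against 32.7, 42.3 and 34.5 CPM in control whole brain. The groups did not overlap, and the difference was 0.76 ± 0.12 (edgeR adjusted p = 0.000338). MFSD2A, the other barrier gene, did not follow it. Its libraries read 56.0, 63.8 and 44.0 CPM in hypothalamus and 56.2, 73.4 and 64.4 CPM in whole brain. These ranges overlap, and the difference of −0.24 ± 0.22 did not pass (edgeR adjusted p = 0.423).

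All 4 receptors were higher in hypothalamus, with no overlap between the groups. TEK measured 14.5, 16.98 and 14.5 CPM against 8.82, 8.42 and 9.74 CPM in whole brain, a difference of 0.77 ± 0.18 (edgeR adjusted p = 0.00404). Its partner TIE1 measured 22.3, 19.9 and 26.3 CPM against 14.1, 14.3 and 13.2 CPM, a difference of 0.72 ± 0.14 (edgeR adjusted p = 0.00182). Relative to their levels, the nearest libraries of the groups lay closer together for the VEGF receptors. FLT1 read 50.4, 66.3 and 69.1 CPM against 44.7, 32.3 and 36.4 CPM (0.71 ± 0.14, edgeR adjusted p = 0.00191). KDR read 51.0, 56.0 and 65.6 CPM against 34.6, 41.2 and 42.3 CPM (0.55 ± 0.15, edgeR adjusted p = 0.0105). KDR no longer passed when library 3 of control hypothalamus (0.43 ± 0.16, edgeR adjusted p = 0.0618) or library 1 of control whole brain (0.46 ± 0.16, edgeR adjusted p = 0.0505) was left out.

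The junction cadherin CDH5 measured 49.9, 49.0 and 53.7 CPM in control hypothalamus and 37.0, 34.2 and 38.5 CPM in control whole brain. The groups were well apart, but the difference was the smallest of those that passed, 0.48 ± 0.14 (edgeR adjusted p = 0.0167). It fell short when library 3 of control hypothalamus was dropped (0.42 ± 0.16, edgeR adjusted p = 0.0703), or library 2 of control whole brain (0.41 ± 0.16, edgeR adjusted p = 0.0751). PECAM1 did not pass at 0.50 ± 0.39 (edgeR adjusted p = 0.343), with whole brain libraries from 12.8 to 40.7 CPM. MMRN1 had 13, 15 and 5 counts in control hypothalamus and 11, 6 and 7 in control whole brain, and its difference of 0.43 ± 0.47 did not pass (edgeR adjusted p = 0.508).

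**Figure D2:**
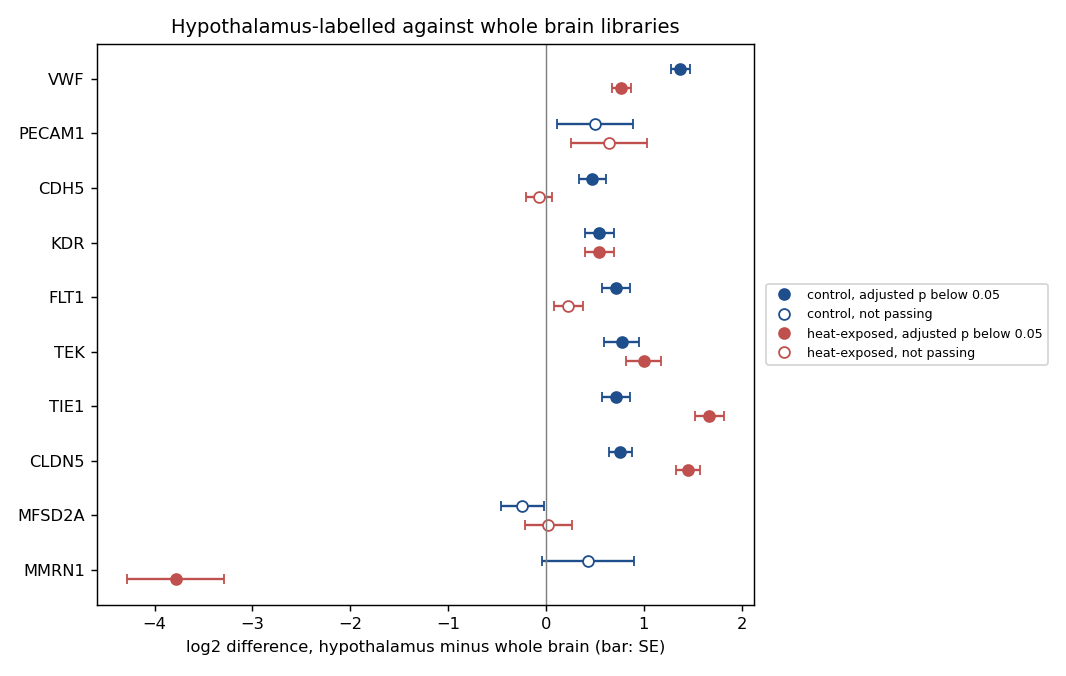
Log2 difference between hypothalamus-labelled and whole brain libraries (horizontal axis, bars are SE) for each gene in control and in heat-exposed embryos, 3 libraries per group. Filled points passed at adjusted p below 0.05; 7 genes are higher in control hypothalamus, and in heat-exposed embryos TIE1 (1.67) and CLDN5 (1.45) lie furthest to the right while MMRN1 lies at −3.79.

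In heat-exposed embryos the same contrast gave a different order of genes. Of the 10, 5 were called higher in hypothalamus (TIE1, CLDN5, TEK, VWF and KDR) and 1 lower (MMRN1), where 58.9% of all 16201 genes were called (29.3% higher and 29.6% lower). The groups did not overlap for 6 of the 10, against 63.5% of all genes. The median of the 10 was 0.60, against 0.01 over all genes. TIE1 differed by 1.67 ± 0.15, CLDN5 by 1.45 ± 0.13, TEK by 1.00 ± 0.18, VWF by 0.77 ± 0.10 and KDR by 0.55 ± 0.15 (edgeR adjusted p from 7.88e-07 to 0.00591). CDH5 (−0.07 ± 0.14), FLT1 (0.23 ± 0.15), PECAM1 (0.64 ± 0.39) and MFSD2A (0.02 ± 0.24) did not pass. With offsets for chromosome and gene length FLT1 passed at 0.54 ± 0.13 (edgeR adjusted p = 0.00338), MFSD2A turned to −0.46 ± 0.20 (edgeR adjusted p = 0.0614) and the VWF difference was 1.165 ± 0.0838. In that fit TIE1 was at 1.718 ± 0.161, TEK at 1.337 ± 0.155 and CLDN5 at 1.043 ± 0.11. The order below TIE1 thus depends on the offsets, with CLDN5 behind TEK and VWF. The PECAM1 difference passed once heat-exposed whole brain library 1 was left out (1.197 ± 0.366, edgeR adjusted p = 0.0155). MMRN1 was lower in hypothalamus by −3.79 ± 0.49 (edgeR adjusted p = 2.2e-05).

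The comparison the study was set up for asked what the heat exposure changed in each tissue. In whole brain it went with lower RNA of the barrier genes CLDN5 and MFSD2A and of the receptors TIE1 and KDR. CLDN5 and TIE1 passed in all 17 alternative settings, but MFSD2A did not pass in 2 of them and KDR in 6. Such counts of settings, here and below, include a looser threshold of adjusted p below 0.1, which any called gene passes by definition. In whole brain they also count a W-linked covariate that repeats leaving out heat-exposed library 1. VWF, CDH5 and FLT1 did not pass the test. Of the 10 genes, 1 was called higher (MMRN1) and 4 lower (CLDN5, TIE1, MFSD2A and KDR), where 44.3% of all 15305 genes tested were called (21.1% higher and 23.2% lower). A call in this contrast is thus common for any gene, and the sizes and the ranks of the members say more than their number. By p, CLDN5 ranked 775, MMRN1 1219, MFSD2A 2000, TIE1 2336 and KDR 5870 among the 15305 genes, of which 6787 were called. The median of the 10 was −0.15, against 0.01 over all genes.

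CLDN5 fell most. Its libraries measured 32.7, 42.3 and 34.5 CPM in controls and 20.4, 16.7 and 20.4 CPM after heat exposure. The highest heat-exposed library lay well below the lowest control. The difference was −0.97 ± 0.13, a fold of 0.511 (edgeR adjusted p = 0.000310), and over 17 alternative settings it ran from −1.04 to −0.76 and passed in each.

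MFSD2A measured 56.2, 73.4 and 64.4 CPM in control whole brain and 43.9, 46.0 and 43.5 CPM after heat exposure. The heat-exposed libraries lay within 3 CPM of each other and below every control. The difference was −0.58 ± 0.10 (edgeR adjusted p = 0.00115), but it was −0.19 ± 0.09 and did not pass (edgeR adjusted p = 0.111) with offsets for chromosome and gene length, and did not pass in 1 fit of all 12 libraries (−0.54 ± 0.22, edgeR adjusted p = 0.0724).

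Among the receptors, TIE1 fell from 14.1, 14.3 and 13.2 CPM in controls to 7.99, 7.61 and 9.52 CPM. No heat-exposed library reached the lowest control. The difference was −0.77 ± 0.14 (edgeR adjusted p = 0.00157) and passed in all 17 alternatives. TEK, the angiopoietin receptor with which TIE1 pairs, read 8.82, 8.42 and 9.74 CPM in controls and 6.47, 9.46 and 7.61 CPM after heat exposure. Its groups overlapped, and −0.24 ± 0.17 did not pass (edgeR adjusted p = 0.283).

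KDR, the main signalling receptor for VEGF, read 34.6, 41.2 and 42.3 CPM in controls and 30.4, 27.4 and 35.5 CPM after heat exposure. Its highest heat-exposed library lay above its lowest control. The difference of −0.38 ± 0.12 passed (edgeR adjusted p = 0.0269), but did not without control library 2 (−0.36, adjusted p = 0.0719) or 3 (−0.34, 0.0937), or without heat-exposed library 1 (−0.37, 0.0649) or 2 (−0.29, 0.106). With a covariate marking libraries of high W-linked share it was −0.37 (edgeR adjusted p = 0.0638). In whole brain that covariate marks heat-exposed library 1 alone, so it repeats leaving that library out and is no separate check. In 1 fit of all 12 libraries the KDR difference was −0.34 (edgeR adjusted p = 0.0886). FLT1, which binds VEGF with high affinity, read 44.7, 32.3 and 36.4 CPM in controls and 34.9, 35.2 and 42.7 CPM after heat exposure. These sets interleave, and the difference was −0.05 ± 0.13 (edgeR adjusted p = 0.786).

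The general markers CDH5 and VWF did not pass. CDH5 measured 37.0, 34.2 and 38.5 CPM in controls and 40.3, 41.3 and 41.7 CPM after heat exposure. VWF measured 44.1, 43.6 and 45.5 CPM in controls and 46.5, 46.2 and 52.0 CPM after it. Every heat-exposed library thus lay above every control for both genes, but by little. CDH5 differed by 0.13 ± 0.09 (edgeR adjusted p = 0.272) and VWF by 0.08 ± 0.09 (edgeR adjusted p = 0.499). With offsets for chromosome and gene length VWF changed sign to −0.18 ± 0.09 (edgeR adjusted p = 0.115), close to the value of MFSD2A in that fit, and CDH5 was at 0.18 ± 0.08 (edgeR adjusted p = 0.0961). Across all genes 56.5% had no overlap in this contrast, against 6 of the 10 here.

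Set against CDH5 in the same library, CLDN5 stood at a CPM ratio of 1.006 ± 0.201 in control whole brain and 0.467 ± 0.0554 after heat exposure (mean ± SD, n = 3). The ratio of TIE1 to CDH5 went from 0.381 ± 0.0380 to 0.204 ± 0.0224, that of MFSD2A from 1.78 ± 0.329 to 1.08 ± 0.0361 and that of KDR from 1.08 ± 0.136 to 0.757 ± 0.0938. The ratio of VWF was 1.22 ± 0.0530 before and 1.17 ± 0.0648 after. Expressed per kilobase, CLDN5 made up 37.0% to 41.6% of the summed level of the 10 genes in control whole brain and 26.8% to 29.9% after heat exposure. These ratios show unequal change among the members, not which of them moved.

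MMRN1 rose by the largest fold of the 10, from a very low level. It had 11, 6 and 7 counts in control whole brain and 55, 51 and 32 counts after heat exposure. In CPM this was 0.713, 0.366 and 0.490 against 3.36, 3.37 and 2.12. Each heat-exposed library held more than any other library in the series. The difference was 2.44 ± 0.37 (edgeR adjusted p = 0.000530), and it ran from 2.21 to 2.73 over 17 alternatives and passed in each. MMRN1 had enough counts for this test only because of the heat-exposed libraries. The filter thus admitted it through the group in which it is high, which limits what the p-value says. It was also called in the alternative without that filter. Per kilobase the raised level of 0.593 ± 0.145 CPM was still below that of TEK in the same libraries (1.498 ± 0.288). MMRN1 is also known from thrombocytes. Of 13 tested thrombocyte markers, MMRN1 alone was called in this contrast, where 44.3% of all genes were called. The summed level of that list was 91.5 to 99.4 CPM in control and 72.4 to 98.0 CPM in heat-exposed whole brain. These sums are far larger than the MMRN1 level. The part of thrombocytes in the MMRN1 rise was not tested.

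**Figure D3:**
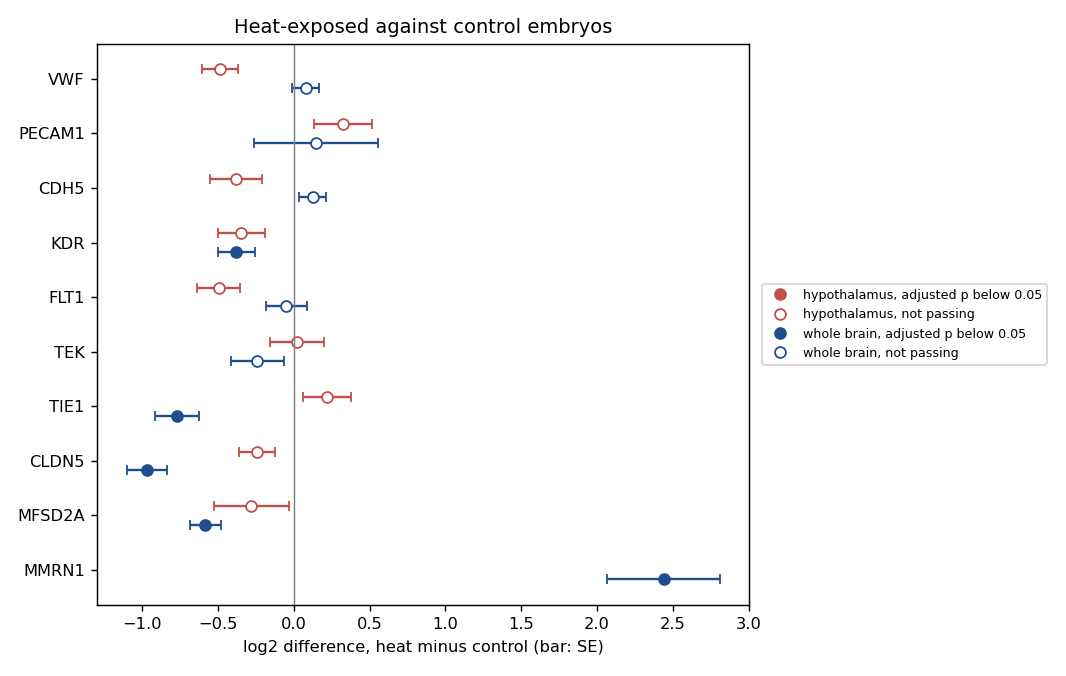
Log2 difference of heat-exposed minus control embryos (horizontal axis, bars are SE) for each gene in hypothalamus and whole brain, 3 libraries per group. Filled points passed at adjusted p below 0.05; in whole brain CLDN5 (−0.97), TIE1 (−0.77), MFSD2A (−0.58) and KDR (−0.38) passed as lower and MMRN1 (2.44) as higher, in hypothalamus no point is filled, and MMRN1 was too low there to be tested.

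The whole brain contrast also has a trend across the genome that touches these genes. The median difference was 0.14 over 8967 genes of chromosomes 1 to 10 and −0.25 over 5338 genes of chromosomes 11 to 39. By annotated length it was −0.22 in genes of 62 to 2062 bases and 0.13 in those of 5419 bases or more. CLDN5 and MFSD2A are both in the class of short genes and on small chromosomes. The other genes of chromosome 15 had a median of −0.08, and 3.84% of them lay at or below CLDN5. On chromosome 23 the median was −0.26, and 24.0% lay at or below MFSD2A. On chromosome 8, where the median was 0.04, 6.77% lay at or below TIE1, and on chromosome 4 (median 0.14) 16.6% lay at or below KDR. With an offset in each library for chromosome and length, an alternative added after these medians were seen, CLDN5 differed by −0.76 ± 0.11 (edgeR adjusted p = 0.000502), TIE1 by −0.84 ± 0.14 (0.000967), KDR by −0.53 ± 0.13 (0.00656) and MMRN1 by 2.30 ± 0.36 (0.000646).

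**Figure D4:**
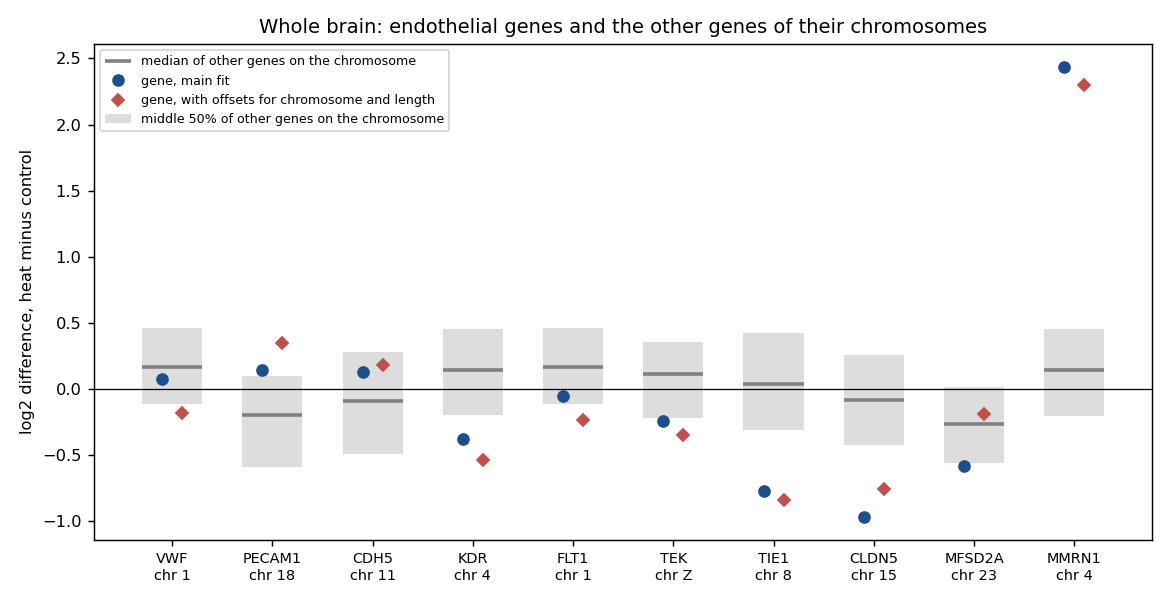
Whole brain log2 difference, heat-exposed minus control (vertical axis), of each endothelial gene beside the other genes of its chromosome, whose median (line) and middle 50% (box) are drawn. Circles are the values as tested and diamonds those with offsets for chromosome and gene length. Lines and boxes hold values without offsets, so the diamonds are not on the same footing as the boxes. MFSD2A moves from −0.58 to −0.19, inside the box of chromosome 23 as drawn. CLDN5 (−0.76), TIE1 (−0.84), KDR (−0.53) and MMRN1 (2.30) stay outside theirs.

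In hypothalamus 0 of the 9 genes with enough counts to be tested were called, where 0.0454% of all 15405 genes were called (0.0389% higher and 0.00649% lower). Unadjusted, 3 of the 9 (VWF, FLT1 and CDH5) had p below 0.05, against 10.3% of all genes, and with DESeq2 1 of them was called. The median of the 9 was −0.28, against 0.01 over all genes. Groups did not overlap for 4 of the 9 (VWF, CDH5, FLT1 and CLDN5), against 16.1% of all genes, and in each the heat-exposed libraries were the lower ones.

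VWF measured 102.5, 122.5 and 120.3 CPM in controls and 75.1, 83.3 and 88.2 CPM after heat exposure. The highest heat-exposed value lay below the lowest control. The difference was −0.49 ± 0.12 (edgeR adjusted p = 0.217), and it passed with DESeq2 (−0.49 ± 0.14, adjusted p = 0.0406) and in 1 edgeR fit of all 12 libraries (−0.48 ± 0.10, adjusted p = 0.0481). Over 18 alternatives it ran from −0.57 to −0.42, with adjusted p from 0.0406 to 0.568.

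FLT1 measured 50.4, 66.3 and 69.1 CPM in controls and 41.1, 45.7 and 45.3 CPM after heat exposure, a difference of −0.50 ± 0.14 (edgeR adjusted p = 0.280). CDH5 measured 49.9, 49.0 and 53.7 CPM and then 30.3, 38.0 and 48.8 CPM, with 1 heat-exposed library close to the controls (−0.38 ± 0.17, edgeR adjusted p = 0.482). KDR read 51.0, 56.0 and 65.6 CPM and then 39.3, 42.6 and 54.3 CPM, so the groups overlapped (−0.35 ± 0.16, edgeR adjusted p = 0.490). None of these passed in any of 18 alternatives.

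CLDN5, TIE1 and MFSD2A, which fell most in whole brain, did not pass here. That alone does not show a different effect in the tissues, which the interaction below addresses. CLDN5 measured 58.1, 61.2 and 66.4 CPM in controls and 52.2, 57.3 and 48.1 CPM after heat exposure (−0.24 ± 0.12, edgeR adjusted p = 0.523). TIE1 measured 22.3, 19.9 and 26.3 CPM and then 31.1, 23.96 and 24.96 CPM (0.22 ± 0.16, edgeR adjusted p = 0.686). MFSD2A was spread widely after heat exposure, at 65.6, 30.7 and 39.8 CPM, with its control libraries between 44.0 and 63.8 CPM (−0.28 ± 0.25, edgeR adjusted p = 0.755). TEK read 14.5, 16.98 and 14.5 CPM and then 14.6, 13.3 and 19.1 CPM (0.02 ± 0.18, edgeR adjusted p = 0.985).

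MMRN1 had 13, 15 and 5 counts in control hypothalamus and 4, 2 and 3 counts after heat exposure, too few for the main test. Each heat-exposed library held fewer counts than any control. In the alternatives that could test it with edgeR the difference ran from −2.11 to −1.46, with adjusted p from 0.154 to 0.672, and it did not pass.

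The values of heat-exposed hypothalamus library 1 depend on which deposited column is read. Whole reads were recovered from its FPKM values, all of them whole to within 0.01 reads, and summed to 12161593 against 13326994 counts. PECAM1 had 507 counts and 226 recovered reads, CLDN5 642 and 968, FLT1 505 and 342, and VWF 923 and 906. With the recovered reads the CLDN5 difference in hypothalamus was 0.06 ± 0.23 in place of −0.24, and 0 of the genes were called.

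The difference between the tissues in their heat effect was tested as an interaction, the effect in hypothalamus minus that in whole brain. It was called for 4 of the 10 genes, 2 higher (TIE1 and CLDN5) and 2 lower (MMRN1 and VWF), where 24.2% of all 16201 genes were called (11.9% higher and 12.3% lower). The median of the 10 was 0.07, against −0.03 over all genes. The interaction uses the same libraries as the contrasts above, so it is no separate evidence for them.

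TIE1 had a heat effect of 0.22 in hypothalamus and −0.77 in whole brain, a difference of 0.95 ± 0.21 (edgeR adjusted p = 0.00725) that passed in all 23 alternatives. CLDN5 had effects of −0.24 and −0.97, a difference of 0.69 ± 0.17 (edgeR adjusted p = 0.0136). VWF had effects of −0.49 and 0.08, a difference of −0.60 ± 0.14 (edgeR adjusted p = 0.00920). With offsets for chromosome and length neither of these passed: CLDN5 was at 0.41 ± 0.15 (edgeR adjusted p = 0.0780) and VWF at −0.26 ± 0.12 (edgeR adjusted p = 0.144). MMRN1 differed by −4.21 ± 0.69 (edgeR adjusted p = 0.00238) and passed in all 23 alternatives, on the low counts given above.

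CDH5 was at −0.55 ± 0.19 (edgeR adjusted p = 0.0568) and FLT1 at −0.48 ± 0.20 (edgeR adjusted p = 0.0998), and neither passed. CDH5 passed without heat-exposed hypothalamus library 3 (−0.73 ± 0.16, edgeR adjusted p = 0.00724), as it did with DESeq2 (−0.53 ± 0.21, adjusted p = 0.0448) and with offsets for chromosome and length (−0.58, edgeR adjusted p = 0.0422). FLT1 passed when library 1 of control hypothalamus was dropped (−0.62 ± 0.19, edgeR adjusted p = 0.0396), or library 1 of control whole brain (−0.63 ± 0.20, edgeR adjusted p = 0.0418). KDR had nearly equal effects in both tissues, with an interaction of 0.00 ± 0.20. TEK (0.22 ± 0.25), MFSD2A (0.27 ± 0.31) and PECAM1 (0.14 ± 0.54) did not pass.

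Among the members with a mean of at least 10 CPM, PECAM1 stood apart in its spread between libraries of the same group. The SD of its log2 level within groups was 0.604, at or above that of 99.4% of 10406 genes with a mean of at least 10 CPM. It measured 40.7, 33.1 and 12.8 CPM in control whole brain and 53.7, 21.1 and 23.6 CPM after heat exposure. In hypothalamus it was even in controls (39.4, 43.6 and 39.9 CPM) and had 1 high library after heat exposure (41.3, 69.0 and 43.6 CPM). Its whole brain heat effect of 0.15 ± 0.41 did not pass (edgeR adjusted p = 0.795). It changed sign without control library 3 (−0.23) and without heat-exposed library 1 (−0.42). The covariate for a high W-linked share gave −0.42 ± 0.35 (edgeR adjusted p = 0.367). In whole brain it marks heat-exposed library 1 alone, so it repeats leaving that library out.

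POLG2, the accessory subunit of the mitochondrial DNA polymerase, lies 9808 bases from PECAM1 on chromosome 18 (7510885 to 7517184) and was singled out after its values were seen. It read 11.2, 10.1 and 2.59 CPM in control whole brain and 10.3, 4.04 and 3.24 CPM after heat exposure. The libraries that were low for PECAM1 were the low ones for POLG2. In heat-exposed hypothalamus it read 13.9, 21.2 and 9.44 CPM, with its highest value in the library where PECAM1 was highest. The correlation of the log2 levels within groups was 0.957 over 12 libraries. Among the other genes within 50000 bases it was 0.794 for MILR1, which overlaps POLG2 on the opposite strand, 0.582 for CEP95, 0.187 for DDX5, 0.0122 for TEX2, −0.254 for SMURF2 and −0.536 for the microRNA gene gga-mir-3064. These points share library and depth, and the counting of strand is not stated. The highest PECAM1 levels of the 12 libraries were in heat-exposed hypothalamus 2 (69.0 CPM) and heat-exposed whole brain 1 (53.7 CPM), both with high W-linked counts, while control hypothalamus 3, the other such library, was at 39.9 CPM. The part of this in the PECAM1 results was not tested beyond the covariate, which in whole brain amounts to leaving out heat-exposed library 1.

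**Figure D5:**
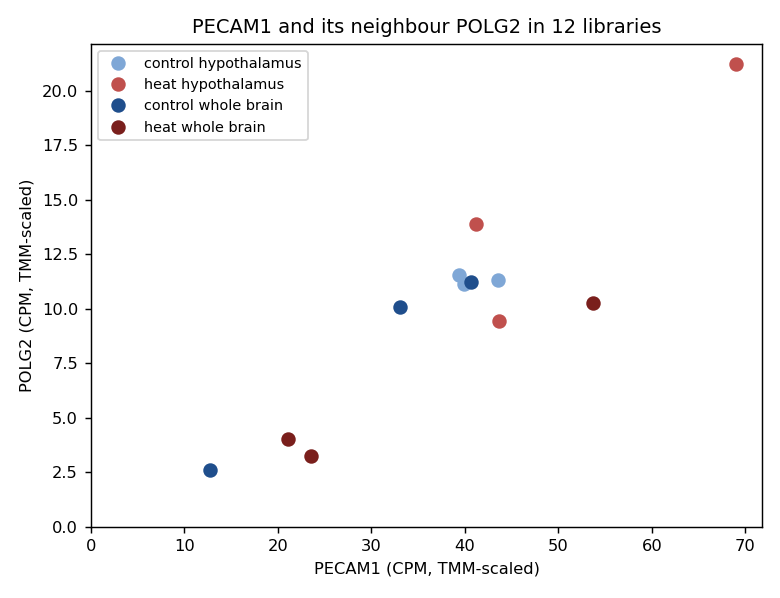
Level of PECAM1 (horizontal axis) and of its chromosomal neighbour POLG2 (vertical axis) in CPM after TMM scaling, 1 point per library coloured by group. The 3 whole brain libraries lowest for PECAM1 (12.8 to 23.6 CPM) are the lowest for POLG2 (2.59 to 4.04 CPM), and heat-exposed hypothalamus library 2 is highest for both.

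TEK is the only member on the Z chromosome, of which male birds carry a pair and females 1 copy. In the 3 libraries with high W-linked counts TEK was the lowest of its group, though in control hypothalamus by less than the printed decimals show. Its log2 level there stood −0.11, −0.31 and −0.37 from the mean of the other 2 libraries of the group, in control hypothalamus 3, heat-exposed hypothalamus 2 and heat-exposed whole brain 1. The median over 694 Z-linked genes was −0.53, −0.46 and −0.44 in the same libraries, and that of autosomal genes was 0.01 to 0.03. Control whole brain had no such library, so part of the lower TEK mean after heat exposure in whole brain cannot be told apart from this imbalance.

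Across libraries of the same group the members did not rise and fall together. With MMRN1 left out, the mean within-group correlation of each gene with the other 8 ran from 0.248 for VWF and 0.241 for KDR down to −0.128 for PECAM1 and −0.221 for MFSD2A. The closest pairs were VWF with KDR (0.771), VWF with FLT1 (0.733) and CDH5 with KDR (0.656). The most opposed were TEK with CLDN5 (−0.690) and CDH5 with MFSD2A (−0.635). These are descriptions over 12 libraries that share depth and composition. VWF also had the smallest spread of the 10, with an SD of log2 level within groups of 0.104, at or above that of 17.4% of genes. MFSD2A (0.322) was at or above 93.0% of genes. The genes ranked have a mean of at least 10 CPM, which leaves MMRN1 (0.308) outside the set. The 0.5 CPM added before taking logs also narrows the spread of MMRN1, so no rank is given for it.

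As a group profile, the mean standardised level of the 9 genes without MMRN1 was 0.697 to 1.02 in control hypothalamus and 0.203 to 0.567 in heat-exposed hypothalamus. It was −0.508 to −0.338 in control whole brain and −0.985 to −0.716 in heat-exposed whole brain. The 4 genes whose log2 levels followed this profile most closely over the 12 libraries were PM20D1 (Pearson r = 0.983), PCDH17 (0.970), MC4R (0.968) and MAOA (0.962), out of 11807 candidates. PM20D1, for example, stood at 53.8 ± 3.94, 47.0 ± 1.91, 35.4 ± 0.757 and 29.5 ± 1.32 CPM in the groups in that order. Those most like MMRN1 were CLSTN1 (0.980), SMS (0.979), ATP6V1H (0.977), HPRT1 (0.976) and UBE2V2 (0.971). CLSTN1, a neuronal membrane protein gene, went from 1931 ± 23.7 CPM in control to 2394 ± 108 CPM in heat-exposed whole brain, a far smaller relative change than that of MMRN1. Likeness was read from differences mostly between the groups, and many genes share such a profile.

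The ligands and partners of these receptors were examined from a list of 29 genes of VEGF, angiopoietin and Notch signalling, of which 27 were tested. In whole brain 6 rose and 10 fell with heat exposure (median −0.11), where 21.1% of all genes rose and 23.2% fell. Of the angiopoietin ligands of TEK, ANGPT1 and ANGPT2 rose and ANGPT4 fell (−0.69 ± 0.16, edgeR adjusted p = 0.00591). ANGPT1, mostly made by perivascular cells, measured 11.3, 11.3 and 15.8 CPM in controls and 21.3, 29.5 and 31.3 CPM after heat exposure (1.06 ± 0.18, edgeR adjusted p = 0.000917). ANGPT2, made by endothelial cells and acting mostly as an antagonist of TEK in mammals, measured 78.8, 83.9 and 85.7 CPM and then 116.3, 123.0 and 114.4 CPM (0.47 ± 0.07, edgeR adjusted p = 0.000726). The libraries of the 2 groups did not overlap for either ANGPT1 or ANGPT2.

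VEGFA, the ligand of KDR and FLT1, did not pass in whole brain (−0.11 ± 0.10, edgeR adjusted p = 0.413), nor did VEGFC (0.26 ± 0.20), NRP1 (−0.22 ± 0.12) or PTPRB, the phosphatase that acts on TEK (0.22 ± 0.09, edgeR adjusted p = 0.0630). FLT4, the VEGFC receptor, fell from 49.5, 62.3 and 54.8 CPM to 40.7, 38.7 and 30.4 CPM (−0.64 ± 0.12, edgeR adjusted p = 0.00192). NOTCH1 fell by −0.95 ± 0.10 and its target HEYL by −0.99 ± 0.08, and the semaphorin and VEGFC co-receptor NRP2 by −0.69 ± 0.09 (edgeR adjusted p from 5.65e-05 to 0.000313).

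Of the list as a whole 0 genes were called in hypothalamus with heat exposure, with VEGFA at −0.34 ± 0.15, FLT4 at −0.72 ± 0.25 and ANGPT4 at 0.38 ± 0.12. Between the tissues in controls 5 were higher and 8 lower in hypothalamus (median −0.26), where 16.7% of all genes were higher and 17.6% lower. VEGFA was higher there by 0.65 ± 0.14 (edgeR adjusted p = 0.00230) and PTPRB by 0.94 ± 0.17 (edgeR adjusted p = 0.00104). ANGPT2 was lower by −1.42 ± 0.14 (edgeR adjusted p = 5.49e-06) and ANGPT1 by −0.81 ± 0.25 (edgeR adjusted p = 0.0212). In the interaction 6 were higher and 4 lower, against 11.9% and 12.3% of all genes, among them ANGPT2 at −0.64 ± 0.19, PTPRB at −0.77 ± 0.25 and NOTCH1 at 1.012 ± 0.157.

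A further list of 49 endothelial genes, 39 of them tested between tissues, followed the members in controls, with 23 higher and 2 lower in hypothalamus (median 0.53), where 16.7% of all genes were higher and 17.6% lower. The transcription factors TAL1 (1.84 ± 0.19) and GATA2 (2.15 ± 0.24) were among the higher ones, and both are also used outside endothelium. EFNB2, an ephrin of arterial endothelium, was lower by −1.15 ± 0.12. With heat exposure in whole brain 5 rose and 18 fell of 38 tested, where 21.1% of all genes rose and 23.2% fell, and the median was −0.37. STAB1 (−1.18 ± 0.12), ECE1 (−0.77 ± 0.09), SHE (−0.99 ± 0.12) and the endothelial transcription factor SOX17 (−1.16 ± 0.38) were among those that fell, and EFNB2 rose by 0.72 ± 0.09. In hypothalamus 0 were called (median −0.06), with STAB2 at −1.98 ± 0.35 (edgeR adjusted p = 0.144). In the interaction 7 were higher and 3 lower, against 11.9% and 12.3% of all genes. Between the tissues in heat-exposed embryos 22 were higher and 2 lower in hypothalamus (median 0.88), against 29.3% and 29.6% of all genes.

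Of 48 genes tested from a list on the blood-brain barrier and Wnt signalling, 8 rose and 15 fell in whole brain with heat exposure (median −0.11), close to the 44.3% called over all genes. The glucose transporter gene SLC2A1 measured 106.1, 101.1 and 103.3 CPM in controls and 90.4, 84.9 and 76.7 CPM after it. Its groups did not overlap, and it fell by −0.34 ± 0.08 (edgeR adjusted p = 0.00686). The amino acid transporters SLC7A5 (−0.65 ± 0.07) and SLC38A3 (−0.96 ± 0.12), the WNT7 co-receptor ADGRA2 (−1.08 ± 0.16) and BSG (−0.44 ± 0.08) fell as well. They were named for their low p, and none of the 8 genes that rose is among those named here. LEF1, a Wnt target, did not pass at −0.40 ± 0.17 (edgeR adjusted p = 0.0708). In hypothalamus 0 were called (median 0.00). In control embryos 12 were higher and 7 lower in hypothalamus (median 0.15), near the 34.3% called over all genes, with SLC2A1 higher by 0.63 ± 0.09 and WNT7B lower by −2.04 ± 0.23. In the interaction 3 were higher and 2 lower, against 11.9% and 12.3% of all genes.

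Of 24 tested genes of the response to low oxygen, 6 rose and 6 fell in whole brain with heat exposure (median 0.06), near the 44.3% called over all genes. PDK1 rose by 0.67 ± 0.10, and LDHA (−0.65 ± 0.11), CA9 (−0.84 ± 0.15) and ALDOC (−0.58 ± 0.08) fell. In hypothalamus 0 were called, with LDHA at −0.60 ± 0.12. Between the tissues in controls 10 were higher and 2 lower in hypothalamus, against 16.7% and 17.6% of all genes.

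Markers of other cells also differed in whole brain with heat exposure, where 44.3% of all genes were called (21.1% higher and 23.2% lower). For mural cells and microglia the total called was near that share. The called markers were all lower for mural cells and mostly lower for microglia. Of 17 tested mural cell markers, from pericytes and smooth muscle, 0 rose and 8 fell (median −0.41), among them PDGFRB (−0.80 ± 0.10) and VTN (−0.999 ± 0.0856). Their summed level was 530.5 to 574.9 CPM in control and 360.1 to 397.6 CPM in heat-exposed libraries. VTN alone had a mean of 296 CPM over the 12 libraries, so such sums lean on few abundant genes. Of 18 markers of meningeal fibroblasts, 3 rose and 10 fell (median −0.45), and their sum went from 1856 to 2048 CPM in controls to 982.7 to 1097 CPM. Much of that sum is COL1A1 (−1.90 ± 0.12) and COL1A2 (−1.34 ± 0.09), with means of 400.6 and 333.7 CPM over the 12 libraries. Red blood cell markers had 0 higher and 4 lower of 12, with sums of 694.9 to 973.3 and 362.6 to 672 CPM. Microglia and macrophage markers had 2 higher and 6 lower of 20, with sums of 169.1 to 172.9 and 117.7 to 140 CPM.

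Choroid plexus markers had 5 higher and 1 lower of 19, with sums of 891 to 1336 and 1377 to 1971 CPM. Much of these sums is TTR, with a mean of 579.9 CPM over the 12 libraries. Astrocyte markers had 3 higher and 4 lower of 17, with sums of 7005 to 7399 and 6045 to 6821 CPM. Neuronal markers had 9 higher and 4 lower of 15, with sums of 9411 to 9740 and 10420 to 11580 CPM. The hypothalamus list had 0 higher and 4 lower of 13, with sums of 179.9 to 200.7 and 129.6 to 140.1 CPM. Of these markers HBZ and KRT18 were at 0 in all heat-exposed whole brain libraries, and the other detected markers were not. The part of these shifts in the endothelial results was not tested.

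In hypothalamus 0 markers of these lists were called with heat exposure. In the interaction 11.9% of all genes were higher and 12.3% lower. Mural markers there were 6 higher and 0 lower of 17 (median 0.46) and meningeal fibroblast markers 8 higher and 0 lower of 18 (median 0.66). Between the tissues in controls, where 16.7% of all genes were higher and 17.6% lower, mural markers were 10 higher and 3 lower in hypothalamus of 17 (median 0.56, sums of 807.5 to 1062 against 530.5 to 574.9 CPM). Meningeal fibroblast markers were 1 higher and 12 lower of 18 (median −1.08), and choroid plexus markers 1 higher and 12 lower of 19 (median −1.21). Astrocytes had 6 higher and 4 lower of 17, neurons 5 and 5 of 15, microglia and macrophages 3 and 1 of 21, red blood cells 3 and 1 of 12, thrombocytes 3 and 1 of 13, and the hypothalamus list 5 and 7 of 15. Their part in the tissue differences of the endothelial genes was not tested either.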

How the data were processed

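RNA-seq counts per gene were deposited by the authors for 12 libraries. Per the submitters' processing notes they come from featureCounts (Subread 2.0.6) on build GRCg7b, while the labels name neither an aligner nor a strand setting. FPKM values deposited by the authors were used only to check the counts. In 11 libraries they follow from the counts, and in heat-exposed hypothalamus library 1 they match for 0.2695% of genes.

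From the counts, CPM with TMM scaling over the 12 libraries and tests with edgeR 4.0.16 (R 4.3.3; filterByExpr, quasi-likelihood F-test, adjusted over all genes tested) were computed. Heat effects were fitted on the 6 libraries of a tissue. The interaction and the tissue contrasts came from 1 fit of all 12. Printed log2 differences carry edgeR's shrinkage, and the SE is that of the unshrunk difference. The script was tested on simulated data. Alternatives were other scalings, filters, DESeq2 1.42.0, covariates, offsets, leaving out libraries and a looser threshold of adjusted p below 0.1.

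Named genes are the 10 members, a fixed set of pathway genes, and per list and comparison up to 4 called genes of lowest p with a mean of at least 1 CPM (otherwise 2, as values). The members and lists were chosen with earlier results of these data known. No 2 libraries agreed within sampling noise (chi-square per degree of freedom from 5.80 upward).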

Additional observations from a re-analysis of the deposited data

Results flagged for a closer look

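For 4 of the endothelial genes the heat effect differed between the tissues by the interaction term (edgeR, adjusted over all genes, hypothalamus effect minus whole brain effect). Of all 16201 genes tested, 24.2% were called by that term. TIE1 differed by 0.95 and CLDN5 by 0.69, both with the lower value in whole brain. VWF differed by −0.60, with the lower value in hypothalamus. With offsets for chromosome and length CLDN5 (edgeR adjusted p = 0.0780) and VWF (edgeR adjusted p = 0.144) did not pass. MMRN1 differed by −4.21, on at most 55 counts in a library. Groups of 3 libraries were not tested for single outlying values.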

How the results depend on the processing

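No called gene changed direction under any alternative. In hypothalamus the count of called endothelial genes went from 0 to 1 with DESeq2 and to 1 in 1 fit of all 12 libraries, in both cases VWF. Genes called there over the whole table numbered 7 in the main test, 187 with DESeq2 and 83 in 1 fit. In whole brain the count went from 5 to 3 in 1 fit of all 12 libraries, where KDR and MFSD2A did not pass, and the cause was not tested. Genes called over the whole table went from 6787 of 15305 to 5693 of 16201 with that change. Leaving out 1 library at a time gave 0 to 0 called genes in hypothalamus, 4 to 5 in whole brain, 4 to 5 in the interaction, 5 to 7 between tissues in controls and 6 to 7 in heat-exposed embryos. Over the whole table these fits called 0 to 39, 5473 to 6610, 2340 to 4195, 4200 to 6298 and 8503 to 9662 genes. With offsets for chromosome and length, chosen after seeing the data, the counts were 0, 4, 3, 7 and 7 in that order. Over the whole table they were 12, 6189, 3067, 5927 and 9206.

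Correlations over 11909 genes showed no pairing by replicate number. Between groups they ran from −0.4548 to 0.3444 for same-numbered libraries and from −0.443 to 0.5987 for the others. They also carry other differences between libraries, such as the W-linked share, and cannot settle whether the numbers pair embryos. With a replicate block the counts were 0, 5, 4, 7 and 6, the same as without it. Over the whole table they were 2, 6190, 2974, 4938 and 9145 with it, against 7, 6787, 3917, 5564 and 9543 without. Low counts limit MMRN1, and 3 libraries a group limit all tests.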
